A study of Mus musculus with 4 samples.

Results

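The genes described here are the mitochondrial ribosomal protein genes, taken as every row of the deposited gene table whose symbol is Mrpl or Mrps followed by a number and, for some, a single letter. The rule found 77 of the 23997 genes in the table. It uses symbols only and no measured value, but earlier results of these data were known when it was set. The cells were endothelial cells from the lung of C57BL/6 mice, cultured in EBM-2 medium with 10% serum. RNA was sequenced in 4 conditions: cells given control siRNA, cells given control siRNA and dexamethasone (DEX, a synthetic glucocorticoid), cells given siRNA against the glucocorticoid receptor (GR), and cells given GR siRNA and DEX. Either siRNA was applied for 48 h and DEX at 100 nM for 18 h. The layout asks how the receptor and its ligand change endothelial transcripts.

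The deposited table holds 1 value per gene and condition in FPKM, a fragment number scaled by transcript length and library size. Levels can thus be set side by side between genes, subject to the authors' transcript lengths, which were not given in the sources used here. The series design states that conditions were done in triplicate, but the table has 1 column for each, and no SD, n or test can be given. Each label carries the suffix R1, which could mean that a column holds a single replicate; nothing states whether several were combined, and each printed level is the authors' value for its condition. Differences are therefore described by their size on the log2(FPKM + 1) scale, beside the same quantity over every gene that reached 1 FPKM in either column. Genes are counted past a limit of 0.32 on this scale, which is 25% more or 20% less. All 77 genes had at least 5 FPKM in every column, so none was lost to the filter on low values. The scale understates differences of genes of low abundance.

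The mitochondrial ribosome makes the few proteins that mitochondrial DNA still encodes, all of them subunits of the oxidative phosphorylation complexes. Its RNAs come from mitochondrial DNA, while its proteins are encoded in the nucleus, made in the cytosol and imported. Many of these proteins have a counterpart in the bacterial ribosome, and others were added in the evolution of mitochondria. Of the 77 genes, 50 encode proteins of the large subunit, which joins amino acids, and 26 encode proteins of the small subunit, which reads the mRNA. Mrps18a counts with the large subunit, where its protein sits, and so does Mrps30. The remaining gene, Mrps36, carries the family's name but its protein is now known as a subunit of the alpha-ketoglutarate dehydrogenase complex of the citric acid cycle. In the same classification 48 proteins have a bacterial counterpart and 28 are specific to mitochondria. The genes lie on 17 chromosomes, with 10 on chromosome 11 and 8 on chromosome 17, so they do not form a single cluster (GENCODE M21, GRCm38).

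Nr3c1, which encodes GR, stood at 14.4 FPKM with control siRNA, 14.3 with control siRNA and DEX, 5.45 with GR siRNA and 5.32 with GR siRNA and DEX. All 9 endothelial markers were above 1 FPKM in every column, with summed levels of 2288 to 2619 FPKM. The 9 fibroblast and mural cell markers summed to 6.61 and 6.40 FPKM in the control siRNA columns and to 12.3 and 11.4 in the GR siRNA columns, with Rgs5 at 0 in all 4. The epithelial list of 7 summed to 4.24 to 5.70 FPKM. Of the leukocyte list, 7 of 8 symbols were in the table, and its sum of 161 to 219 FPKM was almost all Cd68, with Ptprc and Cd3e at 0 in all columns. The part of these lists in the differences below was not tested. The smallest steps between low values corresponded to an estimated 35500000 to 51300000 fragments per column, lowest for control siRNA. At that depth each mitochondrial ribosomal protein gene held at least 115 fragments over its coding sequence, and counting alone gave a log2 difference a median error of 0.064 to 0.068, up to 0.18 for the least abundant. These errors do not contain the spread between cultures.

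The mitochondrial ribosomal protein genes were transcripts of middle to high abundance in these cells. Their means over the 4 columns ran from 7.43 FPKM for Mrpl41 to 177 FPKM for Mrpl52, a span of 23.9-fold, with a median of 38.1 FPKM. Of all genes of at least 1 FPKM, 76.5% had a mean at or below that median. Most members lay close together, with 56 of 77 between 20 and 100 FPKM, 7 at 100 or above, 12 between 10 and 20 and 2 below 10. For scale, the median of the 76 cytosolic ribosomal protein genes measured was 993 to 1113 FPKM, and that of 86 oxidative phosphorylation genes was 122 to 139 FPKM.

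**Figure D1:**
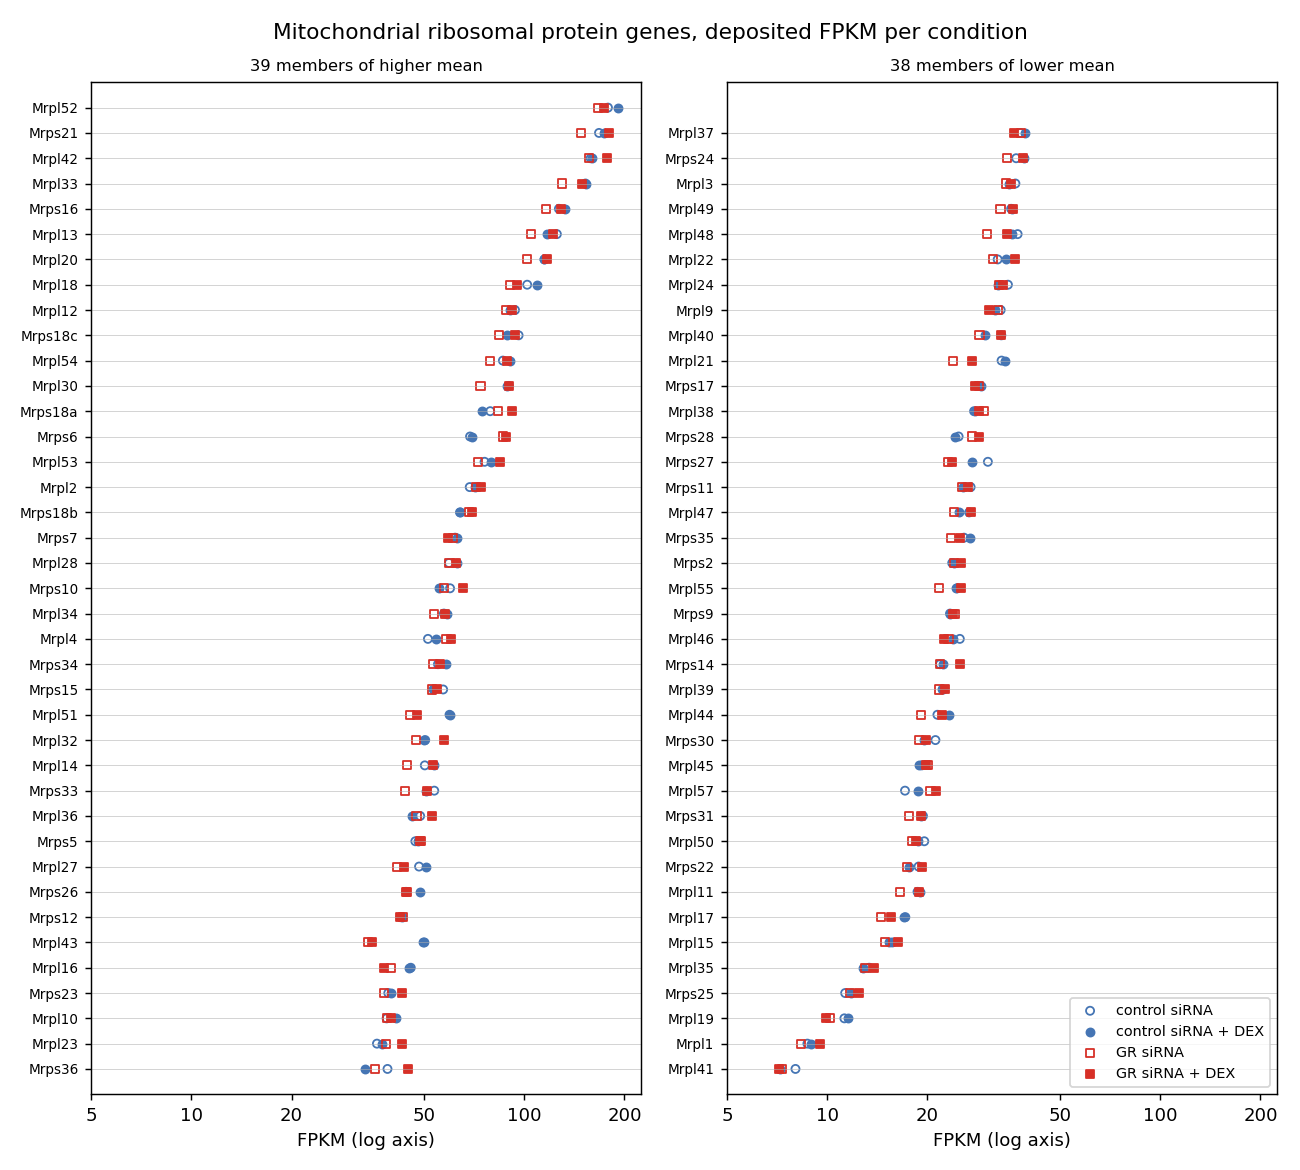
FPKM (log axis) of each of the 77 genes in the 4 conditions, ordered by mean; circles are control siRNA, squares GR siRNA, and filled symbols DEX. Means run from 177 FPKM for Mrpl52 to 7.43 for Mrpl41, and the 4 symbols of a gene lie close together beside that span, the widest being 1.48-fold for Mrpl43.

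The most abundant member was Mrpl52, a large subunit protein with no bacterial counterpart, at 178, 191, 167 and 174 FPKM for control siRNA without and with DEX and then GR siRNA without and with DEX. That order is used for every set of 4 values below. Mrps21, of the small subunit, came next at 168, 173, 148 and 180 FPKM. Mrpl42 followed at 158, 160, 157 and 178 FPKM, a range that overlaps that of Mrps21. The next in order were Mrpl33, Mrps16, Mrpl13, Mrpl20 and Mrpl18, whose means ran from 146 down to 99.2 FPKM, and then Mrpl12 and Mrps18c. The means of the last pair, 91.1 and 90.8 FPKM, lie closer together than the 4 values of either gene do, so their order is not resolved. Mrpl12 encodes the stalk protein of the large subunit, which also binds mitochondrial RNA polymerase.

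At the other end, Mrpl41 stood at 8.03, 7.23, 7.30 and 7.17 FPKM and Mrpl1, the protein of the flexible L1 stalk, at 8.72, 8.91, 8.34 and 9.52 FPKM. Mrpl19, Mrps25 and Mrpl35 had means of 10.7, 11.8 and 13.3 FPKM. The longest annotated coding transcripts of Mrpl1, Mrpl19, Mrps25 and Mrpl35 run from 3556 to 6073 nt. That of Mrpl41 has 776 nt. Mrpl19 and Mrps25 share 37.9% and 68.9% of their runs of 31 bases with another gene. The part of length and sharing in these levels was not tested. Most mitochondrial ribosomal proteins are present once in each particle, while their transcripts were not at equal levels. Across the 77 genes, shorter coding sequences went with higher levels (Spearman's rho = -0.40 across genes, which share the library and the length term of FPKM). The median level of the small subunit was 40.6 to 42.7 FPKM over the columns and that of the large subunit 34.2 to 37.0 FPKM. Genes with a bacterial counterpart had medians of 42.4 to 46.4 FPKM, and the mitochondria-specific genes 28.8 to 31.9 FPKM, lower in each of the 4 columns.

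Levels moved little across the 4 conditions. The ratio of the highest to the lowest column was 1.02 for Mrps12, the steadiest, had a median of 1.14 and reached 1.48 for Mrpl43. Only 6 of the 77 genes (7.79%) varied by 25% or more, while 23.7% of the 8506 genes of at least 5 FPKM in each column did, although the median ratio of those genes, 1.15, was like that of the members. The summed FPKM of the members was 3869 with control siRNA, 3885 with control siRNA and DEX, 3614 with GR siRNA and 3933 with GR siRNA and DEX, or 0.67% to 0.71% of a column's total. GR siRNA without DEX was the lowest column for 45 of 77 genes (58.4%), against 26.3% of all genes of at least 1 FPKM. It was also the lowest for 69 of 76 cytosolic ribosomal protein genes and 56 of 86 oxidative phosphorylation genes. The comparison of GR siRNA without DEX and that of DEX within GR siRNA cells both use that column, so they are not separate pieces of evidence.

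With GR siRNA and no DEX, 56 of the 77 genes were lower than with control siRNA and 21 were higher. The share that was higher, 27.3%, compares with 47.2% of all 11325 genes tested. The differences were small: the median was -0.09 on the log2(FPKM + 1) scale, against -0.01 over all genes, and the range was -0.55 to 0.32. Past 0.32, 4 members were lower (8.86% of all genes were) and 1 was higher (7.7% of all genes), and none reached 1.5-fold either way, where 2.54% of all genes were lower and 2.36% higher. The lean to the lower side depends on the scaling. With columns rescaled to equal sums 42.9% of members were higher and their median was -0.019, while the share of all genes that was higher moved from 47.2% to 61.1% and their median to 0.056. Relative to the median of all genes, that of the members was lower under both scalings.

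The lean to lower values was mostly that of the large subunit. In the large subunit 10 of 50 genes (20%) were higher, with a median difference of -0.10. In the small subunit 11 of 26 (42.3%) were, with a median of -0.04, nearer to the 47.2% and -0.01 of all genes. Among genes with a bacterial counterpart 15 of 48 were higher (median -0.08), and among mitochondria-specific genes 6 of 28 (median -0.11). The cytosolic ribosomal protein genes had a median of -0.16, with 5 of 76 higher, and the oxidative phosphorylation genes one of -0.08, with 23 of 86 higher. Both lists thus lay on the lower side in the same pair of columns.

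With DEX in both arms, somewhat more members were higher with GR siRNA than lower, by small amounts. There were 44 of 77 genes higher with GR siRNA (57.1%; 48.2% of all 11344 genes tested) and 33 lower. The median was 0.02, against -0.01 over all genes, and the range was -0.49 to 0.42. Past 0.32, 2 genes were higher (7.78% of all genes) and 2 lower (8.69% of all genes), with none at 1.5-fold (2.36% higher and 2.62% lower over all genes). The split depends on the scaling. With upper quartile scaling 70.1% of members were higher, with a median of 0.053, against 55.4% and 0.024 over all genes. With equal column sums 68.8% of members and 53.2% of all genes were higher. The comparisons without and with DEX share no column. Of the 77 genes, 27 (35.1%) were lower with GR siRNA in both, 15 (19.5%) were higher in both, 6 (7.79%) were higher without DEX and lower with it, and 29 (37.7%) were lower without DEX and higher with it. Over the 11224 genes tested in both, the same shares were 41.7%, 36.9%, 10.2% and 11.3%.

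**Figure D2:**
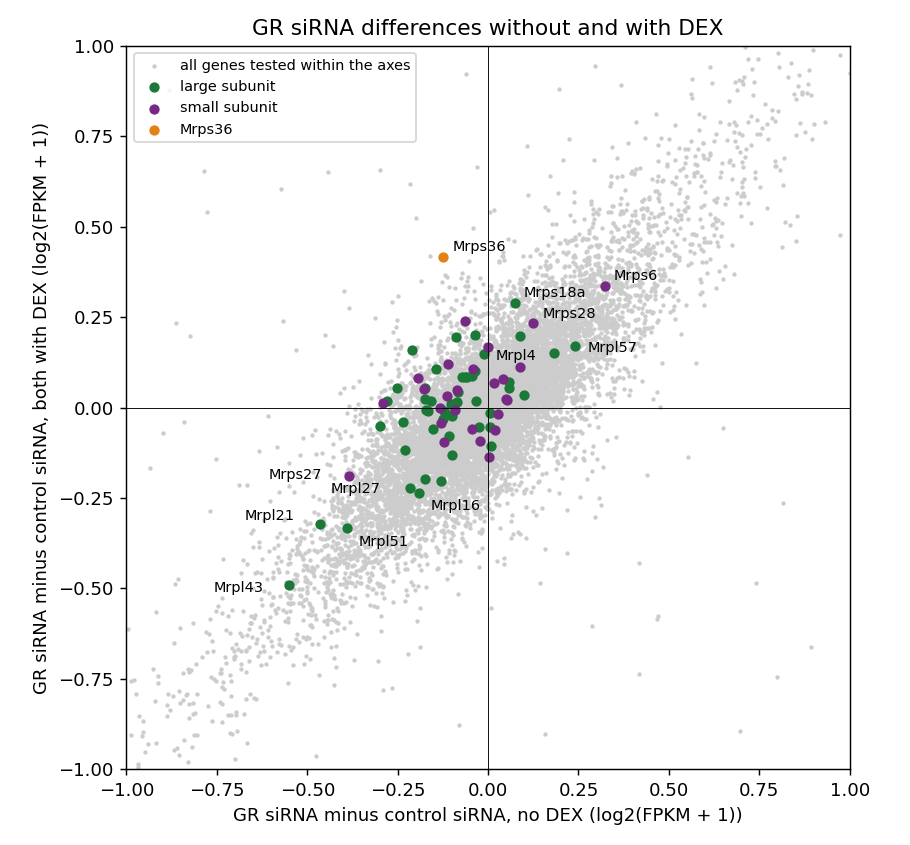
Difference between GR siRNA and control siRNA without DEX (x axis) and with DEX in both arms (y axis), both in log2(FPKM + 1); grey points are all genes tested within the axes, coloured points the members by subunit. Most members lie near the origin and to the left of 0; Mrpl43 (-0.55 and -0.49) is the lowest on both axes, Mrps6 (0.32 and 0.34) lies highest along the diagonal, and Mrps36 (-0.12 and 0.42) stands apart from it.

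Mrpl43, a mitochondria-specific protein of the large subunit, had the most negative difference in both comparisons. It stood at 50.1 and 49.5 FPKM in the control siRNA columns, without and with DEX, and at 33.9 and 34.9 FPKM in the GR siRNA columns. Both GR siRNA values were below both control values, with differences of -0.55 without DEX and -0.49 with it. The gene lies at chr19:45004829-45006442 on the minus strand (GRCm38) and overlaps Twnk, the mitochondrial DNA helicase, on the other strand. Their exons share 507 of the 1520 exon bases of Mrpl43, and 38.5% of its 31-base runs occur in another gene. Twnk, listed in the table as Peo1, stood at 6.92, 7.22, 6.65 and 6.66 FPKM. The authors' strand setting was not given in the sources used here, so reads of the overlap cannot be told apart.

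Mrpl51, another mitochondria-specific protein of the large subunit, stood at 59.6, 60.04, 45.3 and 47.5 FPKM. Its differences were -0.39 without DEX and -0.33 with it, and the 2 GR siRNA values again lay below both control values. Mrpl21, a large subunit protein with a bacterial counterpart, stood at 33.4, 34.3, 23.9 and 27.2 FPKM. Its differences were -0.46 and -0.32, the latter just short of the limit. Mrps27, a pentatricopeptide-repeat protein of the small subunit, stood at 30.4, 27.2, 23.0 and 23.7 FPKM. Its differences were -0.39 without DEX and -0.19 with it, and its control value was lower with DEX than without. Of the 2093 exon bases of Mrps27, 506 overlap 6430562O15Rik, a gene annotated on the opposite strand. That gene was also lower with GR siRNA, past 0.32 both without and with DEX. The part of reads from this overlap in the differences of Mrps27 was not tested.

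Mrps6, a small subunit protein that pairs with the S18 proteins, was the only member past the limit on the higher side in both comparisons, narrowly so without DEX. Its level was 68.7 FPKM with control siRNA, 69.7 with control siRNA and DEX, 86.3 with GR siRNA and 88.3 with GR siRNA and DEX. The differences were 0.32 and 0.34. Slc5a3, the myo-inositol transporter, is annotated on the same strand at this locus and shares 159 exon bases with Mrps6. Slc5a3 stood at 2.62, 2.56, 3.29 and 3.03 FPKM, higher by 0.25 and 0.18, so it and Mrps6 were both higher with GR siRNA. Another protein-coding gene annotated on that strand, Gm49711, shares 305 exon bases with Mrps6, and its level was not examined.

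The other members with the most positive values were small in difference. Mrpl57 stood at 17.1, 18.8, 20.4 and 21.2 FPKM, with differences of 0.24 and 0.17. Mrpl4, which lines the exit tunnel for the new protein, stood at 51.4, 54.2, 58.4 and 60.3 FPKM, with differences of 0.18 and 0.15. Mrps28 stood at 24.8, 24.1, 27.1 and 28.5 FPKM, with differences of 0.13 and 0.23. In these 3 genes both GR siRNA values lay above both control values, and none shares more than 1.57% of its 31-base runs with another gene. Mrpl38 was higher by 0.10 and 0.03 only.

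On the lower side, Mrpl16 stood at 45.6, 44.9, 39.9 and 37.98 FPKM and Mrpl27, a protein at the site of peptide bond formation, at 48.3, 50.7, 41.4 and 43.4 FPKM. Their differences were -0.19 and -0.24 for Mrpl16 and -0.22 in both comparisons for Mrpl27. Mrpl19, at 11.3, 11.5, 10.2 and 9.89 FPKM, had differences of -0.13 and -0.20. By contrast Mrpl48 (37.3, 36.0, 30.2 and 34.7 FPKM) and Mrps33 (53.7, 50.6, 43.7 and 51.1 FPKM) had differences of -0.30 and -0.29 without DEX, and of -0.05 and 0.01 with it. In these last 2 genes the low value was that of GR siRNA without DEX alone.

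The 3 genes of the Mrps18 family, whose proteins descend from a single bacterial S18 and occupy different places in the particle, did not share a pattern. Mrps18a, of the large subunit, stood at 79.0, 74.9, 83.2 and 91.8 FPKM, with GR siRNA differences of 0.07 without and 0.29 with DEX. Mrps18b stood at 64.1, 64.3, 68.3 and 69.6 FPKM, with differences of 0.09 and 0.11. Mrps18c stood at 96.2, 88.9, 83.9 and 94.1 FPKM, with differences of -0.19 and 0.08. The 4 values of Mrps18b lay below those of the other 2 genes in every column.

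The 6 members past 0.32 in either GR siRNA comparison, Mrpl21, Mrpl43, Mrpl51, Mrps27, Mrps6 and Mrps36, each shared 12.5% to 38.5% of their 31-base runs with another annotated gene. Such sharing, through overlapping exons on either strand or through copies, was found at 10% or more in 29 of the 77 genes (37.7%) and in 22.1% of 10836 protein-coding genes of at least 1 FPKM. None of the 48 members below that limit passed it in either comparison, and their medians, -0.09 and 0.02, were those of the whole set. Exons of 27 members overlapped another gene on the opposite strand and those of 8 on the same strand. The part of shared reads in the 6 differences was not tested.

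**Figure D3:**
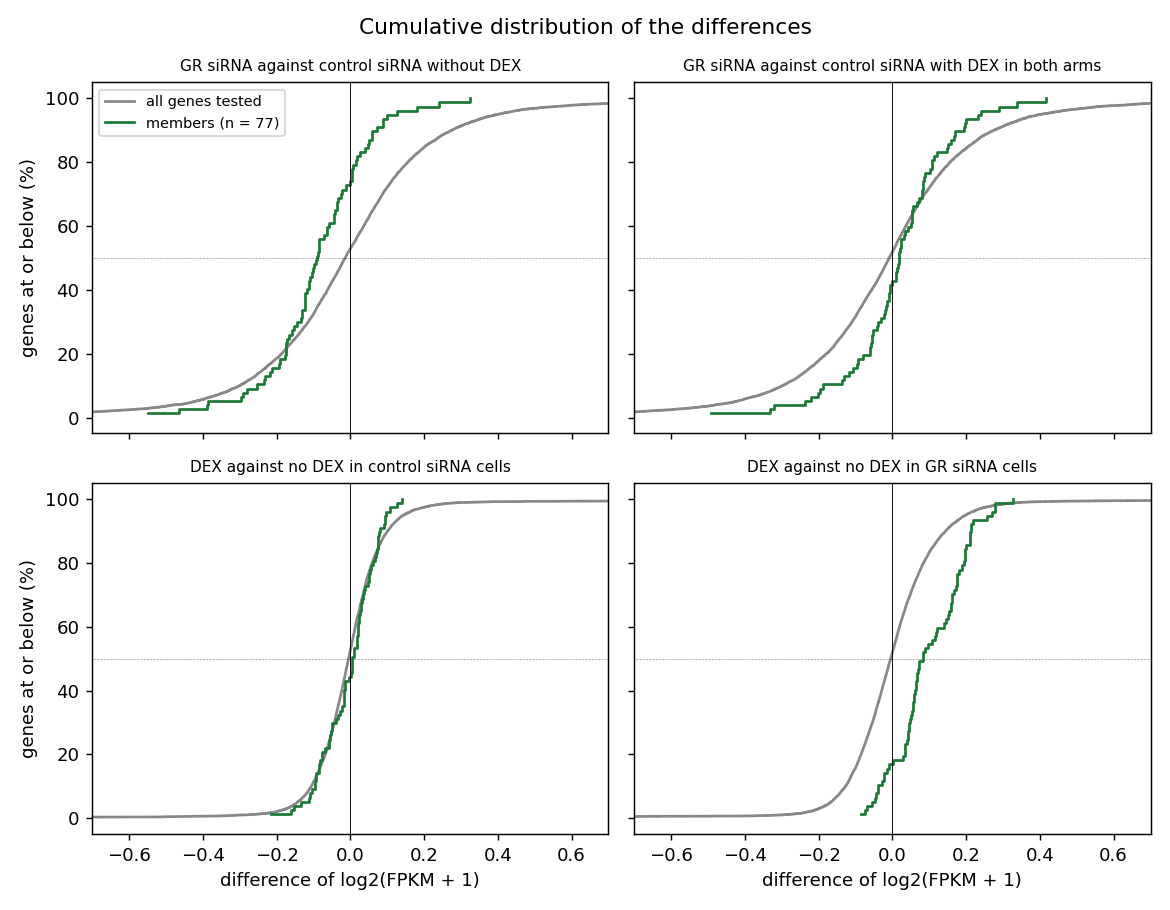
Cumulative share of genes (%) at or below each difference in log2(FPKM + 1), for the 77 members (green) and all genes tested (grey), in the 4 comparisons. The members lie to the left of all genes for GR siRNA without DEX (medians -0.09 and -0.01), to the right for DEX in GR siRNA cells (0.08 and near 0), and near the grey curve at the median in the other 2.

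DEX alone left these genes nearly level in control cells. With control siRNA, 43 of 77 genes were higher with DEX and 34 lower (55.8% higher; 47.4% of all genes). The median was 0.01, against -0.01 over all genes, and the range was -0.22 to 0.14. No member passed 0.32 in either direction, while 1.02% of all genes were higher and 0.882% lower. The most positive values were those of Mrps26 (0.14), Mrpl57 (0.13) and Mrpl44 (0.11), and the most negative those of Mrps36 (-0.22), Mrpl40 (-0.16) and Mrps27 (-0.15). The highest counting error of a member in this comparison was 0.18, for Mrpl41, and the median 0.066.

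In GR siRNA cells, 64 of 77 genes were higher with DEX and 13 lower. The share that was higher was 83.1%, against 48.1% of all 11310 genes. The median was 0.08, against less than 0.01 in size over all genes, and the range was -0.09 to 0.33. Past 0.32 only Mrps36 was higher (1.26% of all genes were) and no member was lower (0.973% of all genes). After Mrps36 the largest values were those of Mrpl30 (0.28), Mrps21 (0.28), Mrpl32 (0.27), Mrpl14 (0.26) and Mrps33 (0.22). Mrpl32, a protein that a mitochondrial protease trims before it joins the large subunit, stood at 50.4, 49.9, 47.4 and 57.3 FPKM. Mrpl30 stood at 89.9, 88.8, 73.9 and 89.9 FPKM, so its GR siRNA value was low and the other 3 were alike. Mrpl14 stood at 50.3, 53.6, 44.5 and 53.4 FPKM, again with GR siRNA lowest. On the lower side were Mrpl9 (-0.09), Mrpl37, Mrpl16 (both -0.07), Mrpl38, Mrps7 and Mrps17 (each -0.05), of which Mrps7 and Mrps17 varied by at most 1.07-fold over the columns.

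With equal column sums 68.8% of the members were higher with DEX in GR siRNA cells, with a median of 0.035, while the share of all genes that was higher moved from 48.1% to 30.8% and their median to -0.053. The members' median was above that of all genes under both scalings. Cytosolic ribosomal protein genes had a median of 0.15, with 73 of 76 higher, and oxidative phosphorylation genes one of 0.13, with 72 of 86 higher. Set beside the control cells, 35 members (45.5%) were higher with DEX in both arms, 5 (6.49%) lower in both, 29 (37.7%) lower in control cells and higher in GR siRNA cells, and 8 (10.4%) the reverse. Over the 11092 genes tested in both, these shares were 23.2%, 27.8%, 24.9% and 24.1%. The 2 DEX comparisons share no column.

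The difference between the 2 DEX responses, which uses all 4 columns, was positive for 57 of 77 genes (74.0%; 50.6% of all genes), with a median of 0.11 against less than 0.01 over all genes. It passed 0.32 upward for Mrps36 and Mrpl40 (2.35% of all genes) and downward for none (1.97% of all genes). With equal column sums the median was 0.060, and the share of all genes that was positive moved from 50.6% to 36.2%. Mrpl40, a mitochondria-specific large subunit protein, stood at 33.3, 29.7, 28.7 and 33.3 FPKM, so that either agent alone went with a lower value and both together did not. Mrpl13 (125, 117, 105 and 122 FPKM), Mrps10 (59.9, 55.4, 57.2 and 65.6 FPKM), Mrps33 and Mrpl30 followed with values of 0.30 to 0.31. Mrps26 was the most negative at -0.14, from 44.1, 48.8, 44.3 and 44.3 FPKM.

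Mrps36, the gene whose product is no longer counted as a ribosomal protein, had the largest interaction of the set. It stood at 38.8 FPKM with control siRNA, 33.3 with control siRNA and DEX, 35.6 with GR siRNA and 44.8 with GR siRNA and DEX. The DEX difference was -0.22 in control cells and 0.33 in GR siRNA cells, an interaction of 0.54. Leaving it out moved no median of the set at 2 decimals, and 76 genes then gave -0.09, 0.02, 0.01, 0.08 and 0.11 for the 5 comparisons. Of its 31-base runs, 21.02% occur in another gene.

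In some comparisons the differences went with the length of the coding sequence, in the members and in all other genes. The members' coding sequences had a median of 576 nt, from 195 to 1326 nt, against 1377 nt over genes of at least 1 FPKM. With GR siRNA and no DEX, the median difference was -0.12 for the 23 members under 450 nt and -0.09 for the 715 other genes of that length. From 450 to under 600 nt it was -0.09 for 17 members and -0.06 for other genes, from 600 to under 900 nt -0.07 for 22 members and -0.03 for others, and from 900 to under 1200 nt -0.06 for 11 members and near 0 for others. Only 4 members were longer, too few to read, and other genes of 1800 nt or more had a median of 0.01. The members' median was the lower in each of these 4 classes.

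In GR siRNA cells the relation of DEX to length was the opposite, and both comparisons use the column of GR siRNA without DEX. The median was 0.16 for members under 450 nt and 0.10 for other genes of that length, 0.12 and 0.05 from 450 to under 600 nt, 0.05 and 0.02 from 600 to under 900 nt, and 0.05 and 0.01 from 900 to under 1200 nt. Other genes of 1800 nt or more had a median of -0.04. For DEX in control siRNA cells, other genes ran the same way over a narrower range. Their medians went from 0.015 under 450 nt to -0.025 at 1800 nt or more. The members' medians there were 0.02, -0.02, -0.01 and 0.005 in the classes up to 1200 nt, shortest first. With DEX in both arms, the GR siRNA differences of other genes had medians within 0.02 of 0 in every length class. FPKM estimates of short transcripts depend on fragment size, which was not given in the sources used here, and its part in these values was not tested.

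**Figure D4:**
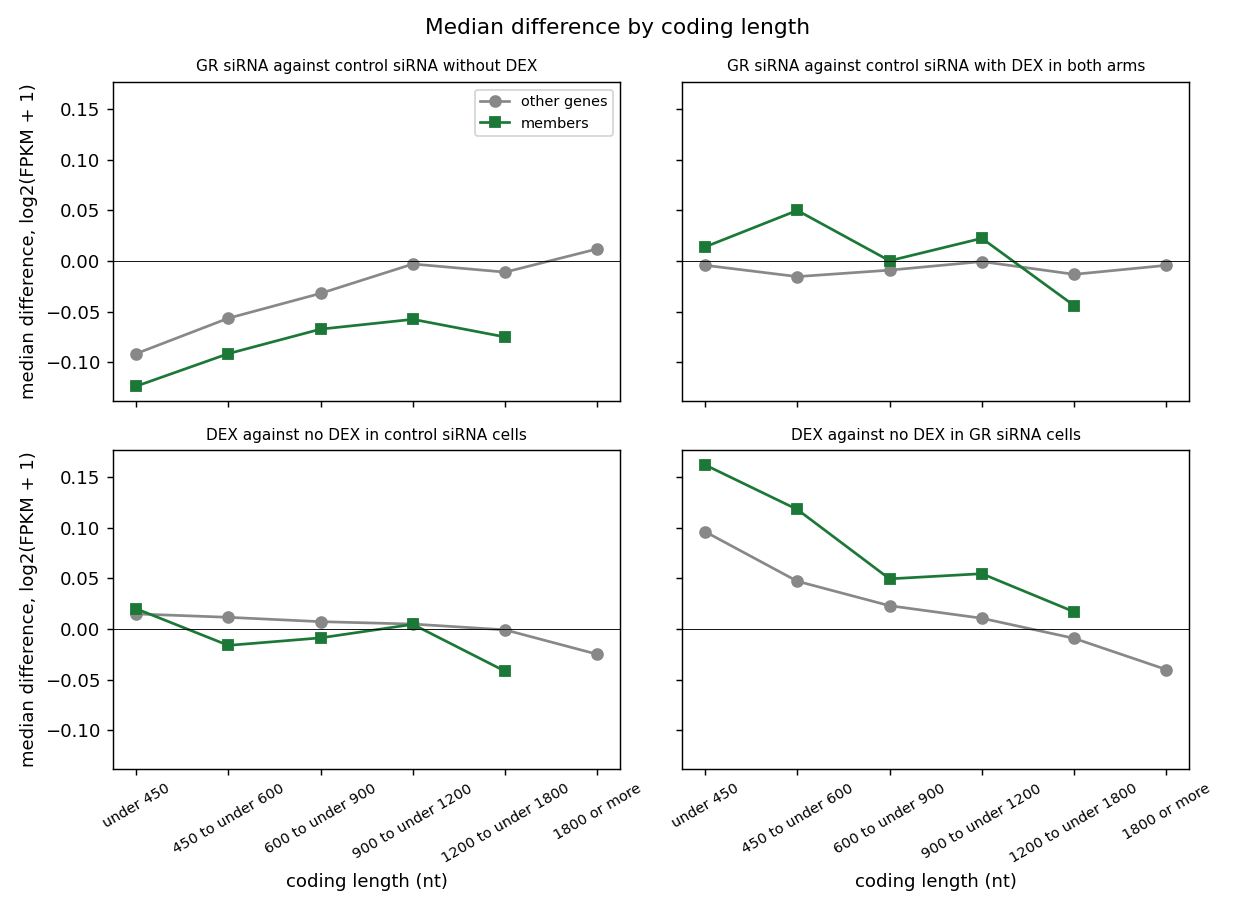
Median difference in log2(FPKM + 1) by coding length (nt) in the 4 comparisons, for the members (green squares) and all other genes (grey circles); members have no gene of 1800 nt or more and only 4 from 1200 to under 1800 nt. Without DEX the GR siRNA medians of both groups are lowest for the shortest genes (-0.12 and -0.09), and for DEX in GR siRNA cells they are highest there (0.16 and 0.10).

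The promoters of these genes carry features that the choice of members did not use. A protein-coding neighbour pointing the other way began within the 1000 bases upstream of 18 of the 77 genes (23.4%). The share was 11.1% among 10836 protein-coding genes. Pairs whose starts overlap, such as Mrpl46 and Mrps11, were not counted. In 16 of the 18 the starts were at most 200 bases apart, with a median of 82. The partners included Psma2, a proteasome subunit, 75 bases from Mrpl32; Sars2, the mitochondrial seryl-tRNA synthetase, 172 bases from Mrps12; and Fau, a cytosolic ribosomal protein gene, 59 bases from Mrpl49. RefSeq promoter sequences (GRCm38.p6; 250 bases before to 50 after the start) were at hand for 68 members and 8574 genes tested. They were searched on both strands for exact short motifs of factors known for nuclear genes of mitochondria.

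The motif CCGGAAG, the core bound by ETS factors such as GABP, was in 24 of the 68 promoters (35.3%) and in 19.5% of all promoters. The YY1 motif AAGATGG was in 13 (19.1%; 7.73% of all), and the palindrome of 10 bases bound by NRF1, in capitals below, in 3 (4.41%; 2.19% of all). Its centre GCATGC, which overlaps it, was in 9 (13.2%; 10.5% of all). CCAAT was in 27 (39.7%; 39.2% of all), and AGAACA, the hexamer at either end of the GR element, in 8 (11.8%; 11.7% of all), shares like those of all genes. The 3 promoters with the NRF1 palindrome are shown first, with the palindrome in capitals, 5′ to 3′ on the gene's strand.
Mrpl9 (chr3:94443298-94443327, plus strand): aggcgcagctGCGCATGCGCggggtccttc
Mrpl32 (chr13:14613105-14613134, minus strand): tttgacccttGCGCATGCGCaagaggggcc
Mrpl39 (chr16:84735350-84735379, minus strand): aaggagaggcGCGCATGCGCccccgcgtgg
The bases on either side of the palindrome differ from gene to gene.

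The ETS core is shown for 3 of the genes that were lower with GR siRNA, for Mrps18a, and for the most abundant member, Mrpl52, with CCGGAAG or its reverse complement CTTCCGG in capitals.
Mrpl43 (chr19:45006480-45006509, minus strand): tcgcggtgactCCGGAAGcaaaactctcca
Mrpl51 (chr6:125192099-125192128, plus strand): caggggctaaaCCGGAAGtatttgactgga
Mrps27 (chr13:99344727-99344756, plus strand): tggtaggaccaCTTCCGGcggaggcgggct
Mrps18a (chr17:46110967-46110996, plus strand): acacccctgctCCGGAAGcggaagtgcaca
Mrpl52 (chr14:54426851-54426880, plus strand): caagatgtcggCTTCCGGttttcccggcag
Mrpl52 also holds the YY1 motif, at chr14:54426807-54426836, shown in the same way.
Mrpl52: tacgataacgcAAGATGGtgggaccggcga
The core occurs in genes whose values were lower (Mrpl43, Mrpl51) and in one whose values were higher (Mrps18a) with GR siRNA and DEX. Members holding it had median GR siRNA differences of -0.12 without DEX and -0.02 with it, and members lacking it -0.08 and 0.02. A match is a description of the letters in this window, not of binding.

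A pair of 7-base runs, TTCTGAA and TCTGAAA, that earlier work on these data had picked out was looked up in the annotated transcripts after the stop codon. They were present in 15 members, Mrpl43 and Mrpl51 among them. Without DEX the median GR siRNA difference was -0.12 for these 15 (12 lower) and -0.09 for the other 62 (44 lower). With DEX the medians were -0.02 and 0.03. Over all genes tested the corresponding medians were -0.06 and 0.01, both without and with DEX. Without DEX, 2025 of 3252 genes holding the runs were lower, and 3652 of 7506 lacking them. The runs were chosen on these samples, so the values are no independent evidence.

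Genes that build and serve the mitochondrial ribosome were described from lists by role. Of 25 assembly factors in the table, such as the GTPases and RNA-modifying enzymes that mature the subunits, 17 were higher with GR siRNA without DEX, with a median of 0.04, and 17 with DEX, with a median of 0.06. Of 13 translation factors, 9 were higher without DEX (median 0.07) and 8 with it (median 0.02). Of 17 mitochondrial aminoacyl-tRNA synthetases, 10 were higher without DEX (median 0.05) and 12 with it (median 0.07). The 6 mitochondrial ribosomal proteins with other symbols had medians of -0.04 and 0.06, where the members had -0.09 and 0.02. Of these 6, 4 were lower without DEX and 5 higher with it. Chchd1, at 146, 144, 122 and 136 FPKM, had the largest difference in size among them without DEX, -0.26. The difference between these lists and the members was not tested.

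Among the assembly factors Tfb1m, which methylates the small subunit's RNA, stood at 2.90, 2.99, 3.96 and 4.08 FPKM. Its differences were 0.34 and 0.35, past 0.32 in both, with both GR siRNA values above both control values. Ftsj2, an RNA methyltransferase of the large subunit also called Mrm2, stood at 4.79, 4.54, 3.68 and 3.72 FPKM, with differences of -0.31 and -0.23. Mettl15 was higher by 0.19 and 0.27. Mtg1 stood at 6.72, 8.21, 8.24 and 7.77 FPKM, with differences of 0.26 without and -0.07 with DEX. Of the translation factors, Gfm2, which helps to split spent ribosomes, was higher by 0.20 and 0.23, and Mtrf1l, a release factor, had differences of -0.27 and -0.19. Tsfm, the exchange factor of the elongation factor, stood at 31.4, 34.0, 38.1 and 33.7 FPKM, high only with GR siRNA alone. Oxa1l, which inserts new proteins into the inner membrane, had differences of -0.20 and -0.12.

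The widest value in these lists was that of Lars2, the mitochondrial leucyl-tRNA synthetase. It stood at 630 FPKM with control siRNA, 346 with control siRNA and DEX, 153 with GR siRNA and 350 with GR siRNA and DEX. The GR siRNA difference was -2.03 without DEX and 0.01 with it. No other gene of its list passed 0.32 in either comparison. The next in size, Ears2, Cars2 and Fars2, were higher by 0.21 and 0.15, 0.21 and 0.08, and 0.16 and 0.24. Lars2 also lay far above its list in level, where the next highest gene, Iars2, stood at 24.97, 23.6, 23.3 and 24.1 FPKM. Why the level of Lars2 stood apart was not tested, nor the part of this in its difference of -2.03.

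Of 12 genes of mitochondrial DNA transcription and RNA stability, 4 were higher without DEX (median -0.03) and 10 with it (median 0.12). Lrpprc, which stabilises mitochondrial mRNAs, stood at 29.1, 27.5, 36.3 and 35.7 FPKM, higher by 0.31 and 0.36. Tfam, which packages mitochondrial DNA and starts its transcription, stood at 10.3, 10.3, 8.59 and 8.42 FPKM, with differences of -0.24 and -0.26. In both genes the GR siRNA values lay apart from the control values whether or not DEX was given. Polrmt, the RNA polymerase, was higher by 0.24 and 0.07. Of 8 transcriptional regulators tested, 3 were higher without DEX (median -0.06) and 2 with it (median -0.07). Nrf1 stood at 11.7, 12.1, 10.8 and 9.95 FPKM, with differences of -0.10 and -0.26. Myc stood at 40.9, 38.8, 34.5 and 35.4 FPKM, with differences of -0.24 and -0.13. Gabpb1, a subunit of GABP, had differences of -0.22 and -0.09, and Pprc1, a coactivator, was higher by 0.12 and 0.18. The proteins and RNAs encoded by mitochondrial DNA itself were not analysed here.

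**Figure D5:**
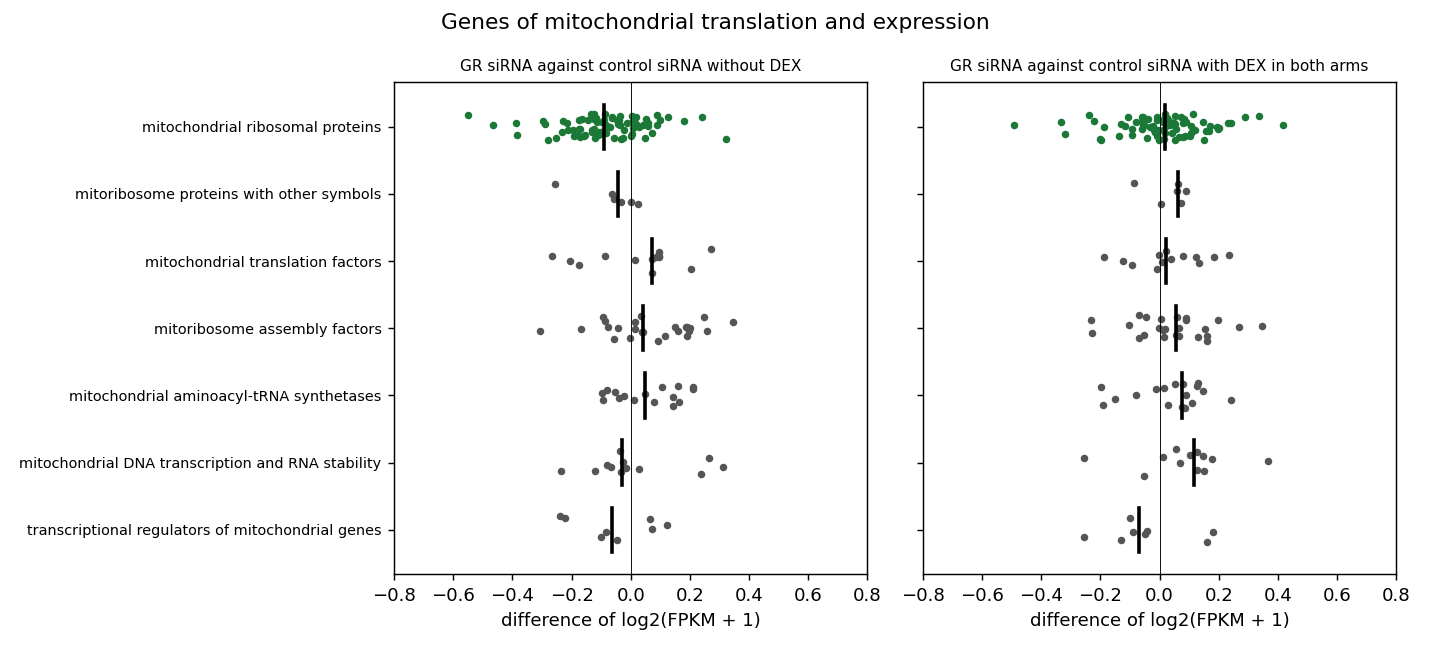
Differences between GR siRNA and control siRNA in log2(FPKM + 1), without DEX (left) and with DEX in both arms (right), for the members (green) and genes of 6 related lists (grey); each point is a gene and each bar the list's median. Without DEX the members' median is -0.09 and those of assembly factors, translation factors and synthetases are 0.04 to 0.07; Lars2 (-2.03) lies outside the left axis.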

How the data were processed

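Values are FPKM per gene as deposited by the authors, 1 column for each of 4 conditions. Per the submitters' processing notes, TopHat2 and Cuffdiff were used on mm10; whether a column is 1 replicate or combines several, the annotation, the strand setting and tool versions were not given in the sources used here. Since FPKM keeps no counts, no count test was made, and 1 column per condition allows no test; limma, planned for replicate columns, was not used.

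A gene was kept where either column reached 1 FPKM, and differences taken on log2(FPKM + 1). Fragments per column were estimated from the FPKM of genes holding 1 fragment (genes with 1 transcript of over 1500 nt, values under 0.05 FPKM), using annotated lengths; 108 to 129 of 325 to 453 such genes shared the most common value. Coordinates, exon overlaps and runs of 31 bases shared with another gene came from GENCODE M21; all 77 members matched by symbol. Promoters came from RefSeq. Python 3.11.15, pandas 2.3.3, numpy 2.4.6, scipy 1.17.1 and matplotlib 3.10.9 were used. The code was also run on simulated data, a copy of 1 column with small noise and planted changes beyond the limit. That run checks the code only. It holds no spread between cultures, so it cannot tell how often a call in these columns is false.

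The rule for naming took the 10 most and 5 least abundant members, the 6 largest differences on each side of each comparison, the 4 largest on each side of the interaction, the Mrps18 family, up to 4 genes of each related list with the largest GR siRNA difference, and Nr3c1. Genes that overlap a member were added after their values were seen. The members and lists were chosen with earlier results of these data known. Alternatives were a pseudocount of 0.1, no filter, a filter at 5 FPKM, upper quartile scaling, equal column sums, centring on the median of all genes, and only members of at least 300 nt that share under 10% of 31-base runs.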

Additional observations from a re-analysis of the deposited data

Results flagged for a closer look

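In Mrps36 and Mrpl40, DEX went with a lower value in control siRNA cells and a higher one in GR siRNA cells. The 2 differences lay more than 0.32 apart. These were 2 of 77 members, a share close to the 2.35% of all genes past 0.32 upward. Of all genes, 24.9% were lower in control cells and higher in GR siRNA cells. For Mrps36 the gap was 0.54 on the log2(FPKM + 1) scale, from 38.8 to 33.3 FPKM with control siRNA and from 35.6 to 44.8 FPKM with GR siRNA. For Mrpl40 it was 0.37, from 33.3 to 29.7 FPKM and from 28.7 to 33.3 FPKM. With 1 column per condition the difference was not tested in either gene.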

How the results depend on the processing

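No paired analysis was possible because the table holds 1 column per condition and its columns carry no replicate number; leaving out replicates was not run for the same reason. Of 140 values of shares, medians and counts recomputed under 7 alternatives, 121 counted as unchanged and 19 did not. Unchanged meant within the 95% interval of the reported share or median, or within 1.5 times the reported count. That interval was taken over genes of the same columns, which are not replicates, so it measures no spread between cultures. No median changed sign. With upper quartile scaling, the median of GR siRNA without DEX was -0.047 (0.027 over all genes). With DEX in both arms 70.1% of members were higher (55.4% of all genes), the median was 0.053 and 1 member was below -0.32. With equal column sums, GR siRNA without DEX had 42.9% higher (61.1% of all genes), a median of -0.019 and 2 members below -0.32. With DEX in both arms 68.8% were higher (53.2% of all genes) and 1 was below -0.32. For DEX in GR siRNA cells 68.8% were higher (30.8% of all genes), the median was 0.035 and 0 members were above 0.32. The interaction's median was 0.060. Among the 48 members that share under 10% of 31-base runs, 0 passed 0.32 on either side with GR siRNA in either comparison, 0 for DEX in GR siRNA cells and 1 for the interaction, where fewer genes enter. All 1445 recomputed values of the 44 named members moved by 0.1 or less on the log2 scale. Part of this agreement, and of that of the 140 values, was fixed in advance. All 77 genes had at least 5 FPKM in every column, so changing the filter could not alter any value of the members. Keeping only unshared members could not alter the value of a single gene. Rescaling moves the abundant genes of a column nearly alike, and by less than the tolerance of 0.1. With equal column sums the median of all genes moved from -0.01 to 0.056 for GR siRNA without DEX. Members' medians such as -0.09 and 0.08 are themselves smaller in size than that tolerance. Of the values of the 27 other named genes, 768 moved by 0.1 or less. The other 7, of Nr3c1, Mterf1a and Tfb1m, moved further with their sign kept. With a pseudocount of 0.1 the GR siRNA differences of Nr3c1 were -1.39 and -1.41. The spread between cultures is not in the table, so it limits every difference by an unknown amount, and scaling moved the medians as given above.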
